A study of Mus musculus with 18 samples.

Results

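Complement is a cascade of plasma proteins and membrane regulators that tags and lyses cells and recruits leukocytes, and 9 of its genes were followed here in fibroblasts and tumor cells sorted from mouse pancreas. The genes were chosen by name, with earlier results of these data known: C2, C3, C4b, Cfb, Cfd, C1ra, C1s, Serping1 and Cd55. All 9 were found among the 23951 gene symbols of the table, with C1s listed as C1s1, a name for which RefSeq gives C1s as a synonym. Of the 9, 8 passed a filter of at least 1 FPKM (fragments scaled by transcript length and by the mapped fragments of the library) in at least 3 of the 18 libraries, and Cfd did not. The 18 polyadenylated-RNA libraries form 5 groups. Normal pancreatic fibroblasts (NPF, n = 3) came from mice with Elas-tTA/tetO-Cre and Rosa26+/EYFP. Fibroblasts of pancreatic tumors (WT_CAF, n = 5) and tumor cells (WT_tumor, n = 4) came from mice that carried these alleles together with Trp53lox/lox. The same fibroblasts (KO_CAF, n = 3) and tumor cells (KO_tumor, n = 3) also came from mice that were Saa3-/- in addition, where Saa3 encodes serum amyloid A3, an acute-phase protein. Elas-tTA drives Cre through the elastase promoter, which is active in acinar cells and not in fibroblasts, and the NPF mice lacked the floxed Trp53. The age of the mice, the sort markers and whether fibroblasts and tumor cells shared animals are not stated in the sources used here.

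The classical pathway starts when the C1 complex, which holds the proteases C1r and C1s, cleaves C4 and C2, whose fragments form a convertase that cleaves C3. The alternative pathway uses factor B (Cfb), cleaved by factor D (Cfd), to form a convertase with C3 itself. C1 inhibitor (Serping1) blocks C1r and C1s, and decay-accelerating factor (Cd55) takes convertases apart on the cell's own surface. The liver makes most circulating complement, and fibroblasts and epithelial cells are known to make several components locally.

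Start-site sequences from RefSeq (build GRCm38.p6, from 250 bases before to 50 bases after the annotated start) were matched for 5 of the 9 genes: C3, Cfd, C1ra, C1s1 and Cd55. C2, C4b, Cfb and Serping1 had no entry. The sequences of C3, C1ra and C1s1, which stood high in tumor fibroblasts and low in tumor cells together, are shown with that of Cd55, which differed less between these cells. Capitals mark matches, on either strand, to 4 short motifs. The motif of C/EBP factors was searched as TTGCNNAA. That of STAT factors, which reads the same on both strands, was searched as TTCNNNGAA. The TATA box was searched with the letters TATAAA, and the GC box, a site of Sp1 factors, with the letters GGGCGG. No motifs overlapped in the windows shown.
C3 (chr17:57228087-57228386, minus strand): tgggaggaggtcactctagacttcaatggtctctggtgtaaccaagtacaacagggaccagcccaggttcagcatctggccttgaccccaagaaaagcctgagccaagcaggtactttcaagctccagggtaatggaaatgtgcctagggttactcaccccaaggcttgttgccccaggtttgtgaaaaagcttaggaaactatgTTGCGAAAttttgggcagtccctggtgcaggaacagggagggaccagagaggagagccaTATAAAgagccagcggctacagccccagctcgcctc
C1ra (chr6:124512371-124512670, plus strand): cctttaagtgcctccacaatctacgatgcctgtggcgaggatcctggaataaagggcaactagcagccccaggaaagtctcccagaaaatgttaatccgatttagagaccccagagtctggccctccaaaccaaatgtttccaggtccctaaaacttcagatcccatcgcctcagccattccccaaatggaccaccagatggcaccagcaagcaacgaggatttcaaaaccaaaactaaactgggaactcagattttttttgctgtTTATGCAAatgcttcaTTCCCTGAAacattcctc
C1s1 (chr6:124542310-124542609, minus strand, the first of 2 entries): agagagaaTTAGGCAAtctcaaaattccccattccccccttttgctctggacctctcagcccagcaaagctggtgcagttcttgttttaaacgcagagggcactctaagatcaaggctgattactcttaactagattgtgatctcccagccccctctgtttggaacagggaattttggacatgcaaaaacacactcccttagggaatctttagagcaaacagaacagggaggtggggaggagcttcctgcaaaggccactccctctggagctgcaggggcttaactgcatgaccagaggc
Cd55 (chr1:130462695-130462994, minus strand): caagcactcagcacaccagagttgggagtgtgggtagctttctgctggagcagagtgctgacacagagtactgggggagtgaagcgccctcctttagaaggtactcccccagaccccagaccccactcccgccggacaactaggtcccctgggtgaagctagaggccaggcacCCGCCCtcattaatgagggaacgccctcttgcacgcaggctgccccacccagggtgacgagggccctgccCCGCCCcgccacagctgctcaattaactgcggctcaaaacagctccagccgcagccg

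TTGCNNAA matched in C3, C1ra and the first of the 2 C1s1 entries, and in 10.8% of all 32851 start-site windows. The second C1s1 entry, which starts further downstream, and Cfd held none of the 4 motifs. The first base of the TTGCNNAA match, counted from the annotated start, was at −45 in C3, 16 in C1ra and −242 in C1s1. In C1ra this motif matched on the minus strand, after the annotated start. It lay close before a TTCNNNGAA match, a motif held by 8.30% of all windows. C3 held TATAAA between its annotated start and the end of the window, as 13.6% of all windows held this motif. Cd55 held none of these 3 motifs and had 2 GGGCGG matches on the minus strand, a motif of 35.7% of all windows. Its window was also the richest in G and C of those shown, at 63.3%, against 53.3% in C3, 47.0% in C1ra and a median of 52.7% over all windows. No window of the 5 genes matched the kappaB consensus or the interferon response consensus, which 4.51% and 3.44% of all windows held. A match is a description of the letters and no evidence of binding.

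Saa3 itself, the targeted gene, was listed at 0.434 to 1.85 FPKM in KO_CAF and at 0 to 0.346 in KO_tumor. With Saa3 intact it was at 892 to 4278 FPKM in WT_CAF 2 to 5, at 7.24 in the library labelled WT_CAF 1, at 2.75 to 106 in WT_tumor and at 3.13 to 331 in NPF. The library labelled WT_CAF 1 stood apart from the other tumor fibroblasts. Its 7 fibroblast markers all reached 1 FPKM but summed to 308 FPKM, against 5983 to 14298 in WT_CAF 2 to 5 and 2716 to 6807 in NPF. Its 6 epithelial markers summed to 626 FPKM, with 4 of them at 1 FPKM or more, against 26.3 to 297 in WT_CAF 2 to 5 and 4.60 to 25.9 in NPF. These 4, Krt8, Krt18, Krt19 and Cdh1, stood above WT_CAF 2 to 5 (252, 245, 119 and 10.1 FPKM). Epcam (0.220) and Cldn4 (0.234) went the other way and stood below all of WT_CAF 2 to 5. In WT_tumor and KO_tumor all 6 epithelial markers reached 1 FPKM in every library, although Epcam was at 2.60 FPKM in WT_tumor 4. WT_tumor 3 held the highest fibroblast sum of the tumor cells, 316 FPKM against 56.3 to 83.0 in the other WT_tumor libraries and 13.1 to 90.8 in KO_tumor. Results that rest on WT_CAF 1 or WT_tumor 3 are given with and without them.

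**Figure D1:**
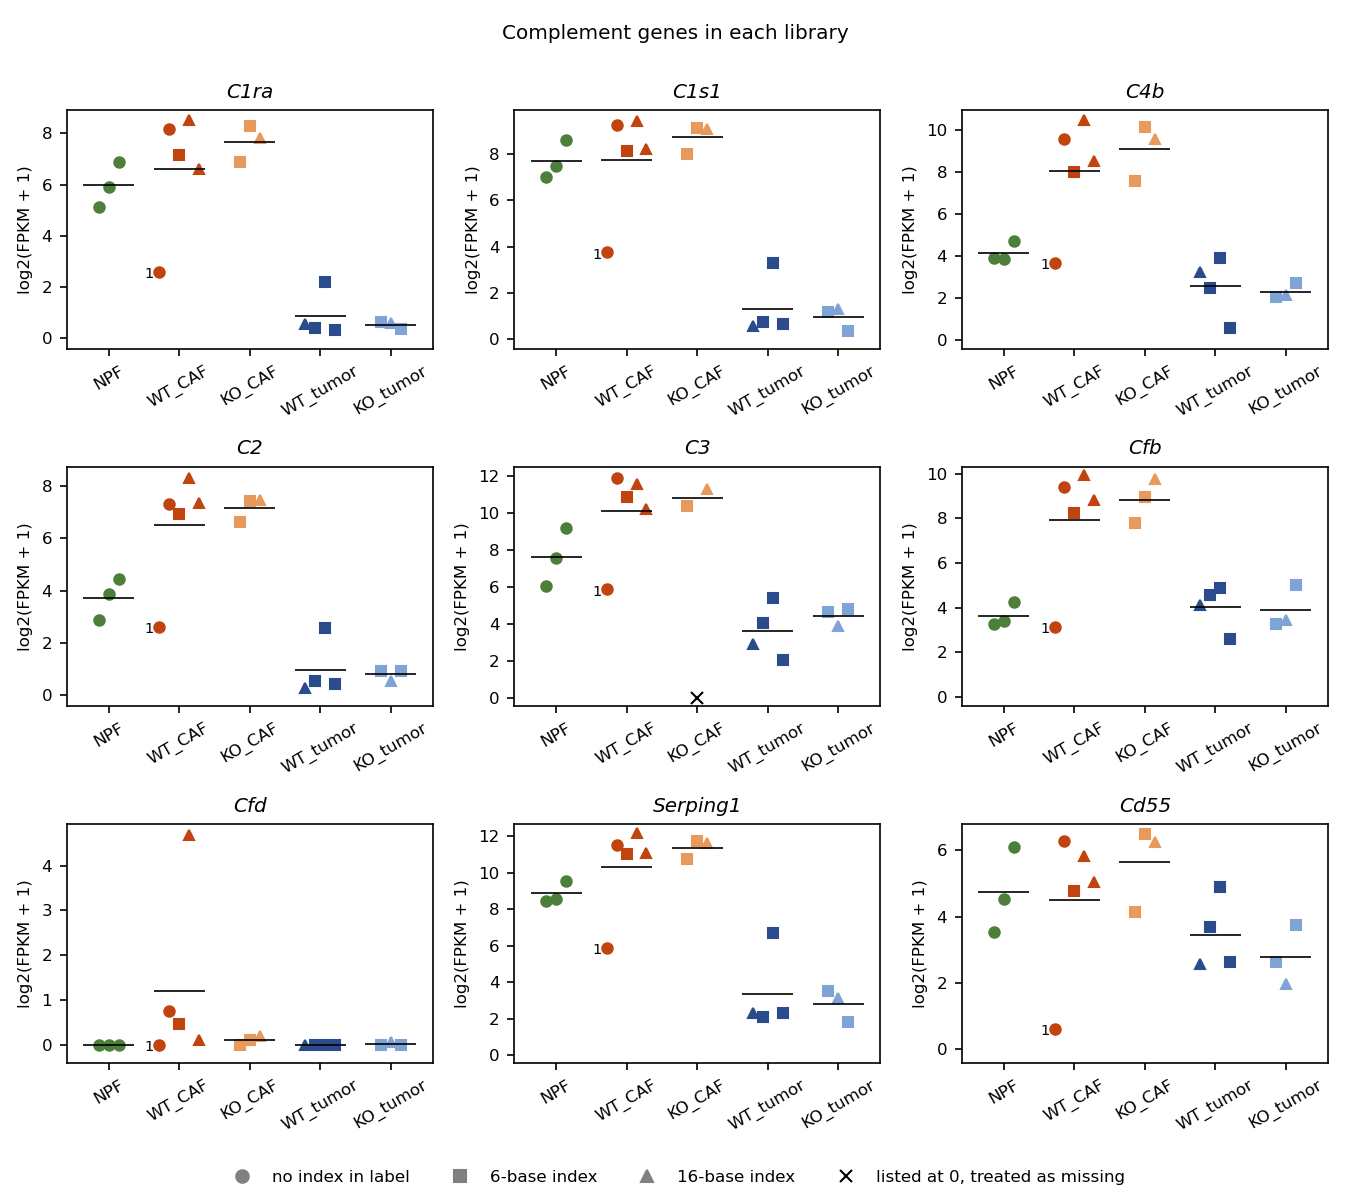
Log2(FPKM + 1) of the 9 complement genes in each of the 18 libraries, grouped on the x axis, with 1 panel per gene. Points are libraries, their shape gives the index in the library label, bars are group means, WT_CAF 1 is marked 1, and the cross marks C3 in KO_CAF 2, listed at 0 and treated as missing. In 7 of the 9 genes WT_CAF 2 to 5 and the measured KO_CAF libraries lie far above the tumor cells, while Cd55 overlaps and Cfd is near 0 almost everywhere.

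C1ra, the C1r protease that activates C1s, was at 34.0, 59.6 and 117 FPKM in NPF. In WT_CAF 2 to 5 it was at 286, 144, 363 and 96.7 FPKM, in WT_CAF 1 at 5.0 and in KO_CAF at 117, 316 and 226. Tumor cells held 0.458, 0.315, 3.66 and 0.264 FPKM in WT_tumor and 0.566, 0.515 and 0.288 in KO_tumor. The tumor cells all stood below every fibroblast library, WT_CAF 1 included, while NPF and WT_CAF overlapped.

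C1s1, the C1s protease that cleaves C4 and C2, followed the same order. It was at 129, 179 and 389 FPKM in NPF, at 604, 279, 693 and 294 in WT_CAF 2 to 5, at 12.5 in WT_CAF 1 and at 254, 560 and 544 in KO_CAF. WT_tumor held 0.479, 0.686, 8.67 and 0.573 FPKM and KO_tumor 1.29, 1.47 and 0.280. The ranges of NPF, WT_CAF and KO_CAF overlapped, and those of both tumor cell groups overlapped below them.

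C4b, the C4 component, was low in normal fibroblasts, at 13.9, 13.4 and 25.2 FPKM. It was at 757, 252, 1386 and 362 FPKM in WT_CAF 2 to 5, at 11.9 in WT_CAF 1 and at 189, 1107 and 739 in KO_CAF. WT_tumor was at 8.45, 4.65, 13.9 and 0.516 FPKM and KO_tumor at 3.16, 3.37 and 5.56. WT_tumor 3 alone of the tumor cells reached the NPF range, WT_CAF 1 lay just under it, and the other tumor fibroblasts stood far above all of these.

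C2, the protease of the classical convertase, stood in NPF at 6.31, 13.7 and 20.6 FPKM and in WT_CAF 1 at 5.08. In WT_CAF 2 to 5 it was at 159, 122, 319 and 163 FPKM and in KO_CAF at 96.9, 173 and 176. It was at 0.199, 0.466, 4.86 and 0.348 FPKM in WT_tumor and at 0.910, 0.444 and 0.909 in KO_tumor. C2 was the member whose KO_CAF libraries agreed most closely, with a mean of 149 ± 44.7 FPKM (SD, n = 3).

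C3, the component at which the pathways meet, was at 65.6, 194 and 586 FPKM in NPF. WT_CAF 2 to 5 held 3857, 1889, 3131 and 1213 FPKM, WT_CAF 1 held 58.3, and KO_CAF 1 and 3 held 1353 and 2508. KO_CAF 2 was listed at exactly 0, which was treated as a failed estimate and as missing. In tumor cells C3 was at 6.71, 15.8, 42.7 and 3.16 FPKM (WT_tumor) and at 24.0, 14.1 and 26.9 (KO_tumor), so KO_tumor lay within the range of WT_tumor. Its NPF libraries differed more than those of C4b, C2 or Cfb, with a coefficient of variation of 96.2% against 38.2% for C4b, 52.6% for C2 and 43.2% for Cfb.

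Cfb, the factor B protease of the alternative convertase, stood in NPF at 8.61, 9.47 and 18 FPKM and in WT_CAF 1 at 7.79. It was at 680, 307, 984 and 452 FPKM in WT_CAF 2 to 5 and at 219, 495 and 884 in KO_CAF. Unlike those of C1ra, C1s1 and C2, the tumor cell levels of Cfb overlapped those of normal fibroblasts: 16.5, 22.6, 28.4 and 4.98 FPKM in WT_tumor and 8.51, 9.78 and 31.0 in KO_tumor. The NPF range lay within that of WT_tumor.

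Cfd, the factor D protease that cleaves factor B, was at or near 0 in 17 libraries. It was listed at 0 in all NPF and WT_tumor libraries, in WT_CAF 1, in KO_CAF 1 and in KO_tumor 1 and 3. The other values were 0.687, 0.386 and 0.0682 FPKM in WT_CAF 2, 3 and 5, 0.0793 and 0.146 in KO_CAF 2 and 3, and 0.0418 in KO_tumor 2. WT_CAF 4 alone stood apart at 24.9 FPKM. The gene was left out of the tests by the filter, and no fold is given against groups listed at 0.

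Serping1, the inhibitor of C1r and C1s, was the most abundant measured member in all fibroblast libraries but WT_CAF 2, where C3 stood higher. In KO_CAF 2 C3 is missing, so the order of these 2 genes is not known there. It was at 352, 379 and 761 FPKM in NPF, at 2889, 2074, 4564 and 2167 in WT_CAF 2 to 5, at 58.6 in WT_CAF 1 and at 1720, 3449 and 3154 in KO_CAF. WT_tumor held 4.04, 3.20, 104 and 3.92 FPKM and KO_tumor 10.4, 7.74 and 2.51. WT_tumor 3 thus stood above WT_CAF 1, while every other tumor cell library lay below all fibroblasts.

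Cd55, the membrane-bound regulator, had the narrowest range of the 8 tested members on the log2 scale. It was at 10.7, 22.3 and 68.0 FPKM in NPF, at 77.4, 26.2, 56.4 and 32.4 in WT_CAF 2 to 5, at 0.532 in WT_CAF 1 and at 16.8, 89.7 and 75.4 in KO_CAF. Tumor cells held 4.94, 11.8, 28.5 and 5.19 FPKM in WT_tumor and 5.23, 2.96 and 12.6 in KO_tumor. NPF overlapped every other group, and WT_tumor overlapped WT_CAF even without WT_CAF 1.

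The members together made up 0.811% to 2.38% of the summed FPKM of WT_CAF 2 to 5 and 0.766% to 1.80% of that of KO_CAF, where C3 was missing in 1 library. In NPF the share was 0.0674% to 0.382%, in WT_CAF 1 it was 0.0402%, and in tumor cells it was 0.00383% to 0.0452%. In bulk libraries, fewer cells of a type and less RNA per cell cannot be told apart. The sum of markers of pericytes, the contractile cells around small vessels, was higher in the same fibroblast libraries. The 4 of them summed to 45.8 to 88.3 FPKM in WT_CAF 2 to 5 and 54.4 to 95.1 in KO_CAF, against 1.14 to 9.998 in NPF and 0.552 in WT_CAF 1. Kcnj8 (means of 44.4 FPKM in WT_CAF 2 to 5, 42.8 in KO_CAF and 1.09 in NPF) and Abcc9 (15.8, 26.3 and 1.58) carried this. Rgs5 (2.08, 2.27 and 1.14) and Cspg4 (2.82, 2.52 and 2.42) overlapped between these groups. Of the 4, 2 to 4 reached 1 FPKM in WT_CAF 2 to 5 and KO_CAF, 0 to 4 in NPF and 0 in WT_CAF 1. In tumor cells the 4 summed to 1.20 to 74.3 FPKM, highest in WT_tumor 2, where Rgs5 alone stood at 74.1. The 6 acinar markers were higher in NPF, at 883 to 35550 FPKM in sum, than in WT_CAF 2 to 5 (188 to 548), KO_CAF (13.0 to 149) and WT_CAF 1 (24.1). The part of these markers in the members' levels was not tested.

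The first comparison set tumor cells against the fibroblasts of the same Saa3 genotype. With Saa3 intact, 7 of the 8 tested members fell in tumor cells, where 12.5% of all 13368 genes tested were called lower (limma on log2(FPKM + 1), adjusted p under 0.05). The median difference of the members was −6.57 on the log2 scale, against 0.07 over all genes. Serping1 had the largest difference, −8.07 ± 1.27 (log2 difference ± SE, WT_tumor minus WT_CAF, adjusted p = 0.00101), followed by C3 at −7.40 ± 1.26 and C1s1 at −7.22 ± 1.06. C2 was at −6.61 ± 0.91, C1ra at −6.54 ± 1.03 and C4b at −6.12 ± 1.18. Cfb fell least among those called, by 4.77 ± 1.15 (adjusted p = 0.00988). Cd55 was not called, at −1.88 ± 1.15 (95% interval −4.35 to 0.60, adjusted p = 0.256), but it was called without WT_CAF 1 and without the fit's term for library format, the index in the library label (−2.05, adjusted p = 0.0313).

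In the mice without Saa3 the same 7 members were called lower in tumor cells, beside 15.4% of all genes, and their median difference was −6.61. Serping1 was again at the end of the order, with −8.56 ± 1.29 (KO_tumor minus KO_CAF, adjusted p = 0.000591), and C1s1 followed with −7.79 ± 1.08. C1ra was at −7.14 ± 1.04, C4b at −6.77 ± 1.20, C3 at −6.44 ± 1.43 and C2 at −6.38 ± 0.92, while Cfb was at −4.95 ± 1.16 (adjusted p = 0.00703). Cd55 was at −2.84 ± 1.17 (adjusted p = 0.0838). The FPKM ranges of KO_tumor and KO_CAF did not overlap for any of the 8 members, as for 21.4% of all genes in this direction. Those of WT_tumor and WT_CAF did not overlap for 4 of the 8, C1ra, C1s1, C2 and C3, against 7.04% of all genes. Without WT_CAF 1 those of C4b, Cfb and Serping1 did not overlap either, beside 16.1% of all genes, and Cd55 still overlapped.

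The calls of the 7 members were kept when WT_tumor 3 was left out. They were also kept without WT_CAF 1, but with the format term this library could change only the spread. The size of WT_tumor minus WT_CAF rests on WT_CAF 3 to 5, and the median stayed at −6.57 without WT_CAF 1. Within the libraries with a 6-base index, the differences of the members ran from −7.33 to −1.04 (WT_tumor minus WT_CAF) and from −8.59 to −2.13 (KO_tumor minus KO_CAF). Within those with a 16-base index they ran from −9.28 to −2.88 and from −8.50 to −4.27, with 1 or 2 libraries on each side. With only the compared groups in the fit, C4b (adjusted p = 0.0612) and Cfb (adjusted p = 0.0968) were no longer called in WT_tumor against WT_CAF. In KO_tumor against KO_CAF the value of C3 rested on 2 KO_CAF libraries: it was −2.78 (adjusted p = 0.371) with the listed 0 taken as a measurement, and −5.76 (adjusted p = 0.0542) without KO_CAF 3, while Cd55 was called at −3.67 (adjusted p = 0.0484) without KO_CAF 1. Cd55 was also called there at −2.84 with only the compared groups (adjusted p = 0.0469) and without the format term and WT_CAF 1 (adjusted p = 0.0133).

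**Figure D2:**
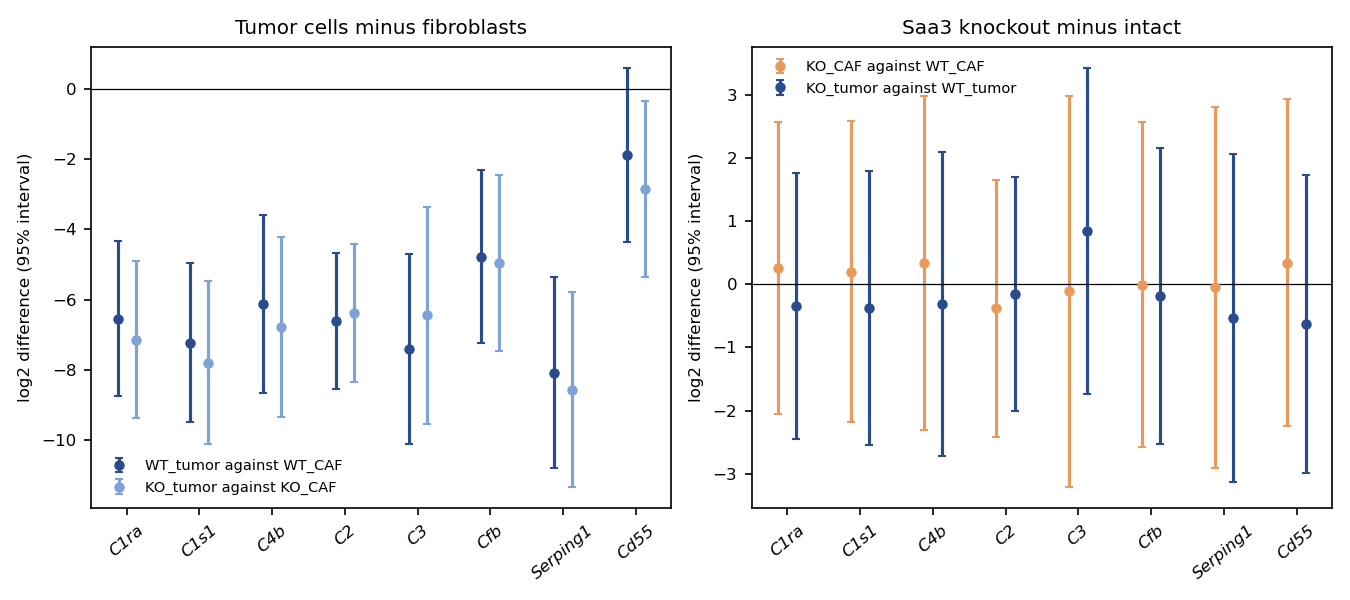
Log2 differences of the 8 tested complement genes with their 95% intervals, for tumor cells minus fibroblasts (left) and for Saa3 knockout minus intact (right), colored by comparison. In the left panel 7 genes lie between −4.77 and −8.56 and Cd55 nearest to 0. In the right panel every interval includes 0.

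WT_CAF against NPF asks how fibroblasts of tumors differ from those of normal pancreas. The main fit, with all libraries, called 0 of the 8 tested members and had 4 of them above 0, as given in the next paragraph. Without the library labelled WT_CAF 1, all 8 tested members stood higher in tumor fibroblasts, with a median of 3.11 on the log2 scale against −0.01 for all genes, and 2 of them rose by the test. This fit rests on WT_CAF 2 as the only tumor fibroblast library of the NPF format, assumed to vary like the other groups. Cfb was called at 5.78 ± 0.95 (adjusted p = 0.0109) and C4b at 5.41 ± 1.14 (adjusted p = 0.0380), where 0.771% of all genes were called higher. C3 (4.29 ± 1.22, adjusted p = 0.127) and C2 (3.59 ± 0.82, adjusted p = 0.0524) were not called. Smaller differences were measured for Serping1 (2.63 ± 1.40), C1ra (2.19 ± 0.86), Cd55 (1.56 ± 1.14) and C1s1 (1.54 ± 0.97), none of them called.

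With all libraries, 0 of the 8 members were called by limma, 0 had an unadjusted p under 0.05, and 0.98% of all genes were called. Cfb was then at 2.64 ± 1.30 (adjusted p = 0.322), C4b at 2.47 ± 1.34, C3 at 1.28 ± 1.42 and C2 at 1.24 ± 1.03. The remaining members were below 0: Serping1 at −0.17 ± 1.44, C1ra at −0.60 ± 1.17, C1s1 at −1.21 ± 1.20 and Cd55 at −1.28 ± 1.31. Without WT_CAF 2, which leaves WT_CAF 1 as the only tumor fibroblast library of this format, all 8 were below 0 with a median of −2.35, and C1ra, C1s1 and Cd55 were called lower, as were 5.51% of all genes. The size of each difference rests on WT_CAF 1 and 2 alone, because NPF and only these tumor fibroblasts carry no index in their label and the format is a term of the fit.

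The measured levels can also be set side by side without the format term. The FPKM of WT_CAF 2 to 5 lay above all NPF libraries for 5 members, C2, C3, C4b, Cfb and Serping1, as for 11% of all genes, and overlapped NPF for C1ra, C1s1 and Cd55. The means were 191 ± 87.5 against 13.5 ± 7.13 FPKM for C2 (SD, n = 4 and 3), 2523 ± 1193 against 282 ± 271 for C3, 689 ± 513 against 17.5 ± 6.69 for C4b, 606 ± 295 against 12.0 ± 5.20 for Cfb and 2923 ± 1153 against 497 ± 229 for Serping1. A fit without WT_CAF 1 and without the format term called these genes except Serping1 higher: Cfb at 5.48 ± 0.61 (adjusted p = 6.985e-05), C4b at 4.97 ± 0.75, C2 at 3.76 ± 0.51 and C3 at 3.54 ± 0.78, where 3.96% of all genes were called higher. In such a fit the format and the group cannot be told apart for WT_CAF 3 to 5.

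**Figure D3:**
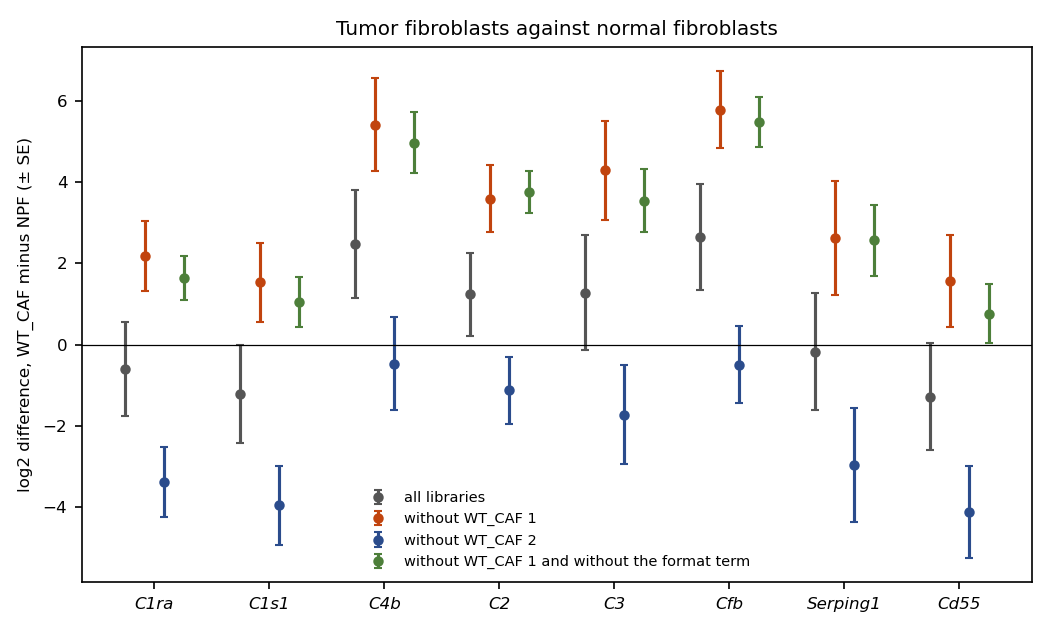
Log2 difference of WT_CAF minus NPF for the 8 tested complement genes, with standard errors, under 4 choices of libraries and terms, given by color. Without WT_CAF 1 (with or without the format term) all 8 lie above 0 and C4b and Cfb highest, while without WT_CAF 2 all 8 lie below 0.

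KO_CAF was set against NPF in the same way. For 6 members, C1ra, C2, C3, C4b, Cfb and Serping1, KO_CAF levels lay above all NPF levels, as for 13.1% of all genes, although for C1ra the nearest libraries stood at 117 FPKM in each group. C1s1 and Cd55 overlapped NPF. With the format term 0 of the 8 were called by limma (0 with an unadjusted p under 0.05, 0.142% of all genes called), and the differences ran from −1.01 (C1s1) to 2.81 (C4b) with standard errors of 1.40 to 2.02. This fit links KO_CAF to NPF through WT_CAF 1 and 2, and without WT_CAF 1, through WT_CAF 2 alone, all 8 differences were above 0 with a median of 2.90 and 0 called (0.165% of all genes called higher). Without the format term Cfb was called at 5.21 ± 1.26 (adjusted p = 0.0451), beside 0.696% of all genes called higher.

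Loss of Saa3 was not accompanied by a called difference in any member. In KO_CAF against WT_CAF, 0 of the 8 were called by limma and 0 had an unadjusted p under 0.05, beside 0.015% of all genes called. The differences lay between −0.38 ± 0.95 (C2) and 0.34 ± 1.21 (Cd55), with C3 at −0.11 ± 1.43, Cfb at −0.01 ± 1.20 and C4b at 0.34 ± 1.23. Their 95% intervals reached from −3.21 to 2.98 and spanned 2.03 to 3.09 to each side. Differences of that size or less on the log2 scale could be missed with these libraries. Within formats, the differences ran from −0.48 to 0.86 among 6-base libraries and from −0.38 to 0.80 among 16-base libraries, with 1 or 2 libraries on each side. With the format term the size of this comparison rests on WT_CAF 3 to 5. The median of the members was 0.0951 with all libraries and also without WT_CAF 1 or WT_CAF 2.

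In tumor cells, KO_tumor against WT_tumor also gave 0 called members, 0 with an unadjusted p under 0.05 and 0.00748% of all genes called. C3 was at 0.84 ± 1.19 (95% interval −1.73 to 3.42), and the other 7 lay between −0.63 ± 1.10 (Cd55) and −0.15 ± 0.86 (C2). Without WT_tumor 3, 7 of the 8 were above 0 (1 with all libraries) and the median moved from −0.33 to 0.24, with 0 called. Serping1, at −0.54 ± 1.21 with all libraries, was then at 0.58, C2 at 0.38, C1s1 at 0.29, C4b at 0.19, Cfb at 0.14 and C1ra at 0.11, and Cd55 stayed below 0 at −0.16. Within formats, the differences ran from −1.03 to 0.86 (6-base) and from −1.11 to 0.97 (16-base, with 1 library on each side). The knockout effect in tumor cells minus that in fibroblasts was also tested: 0 of 8 were called (0 with an unadjusted p under 0.05, 0% of all genes called), with differences from −0.97 ± 1.64 (Cd55) to 0.96 ± 1.87 (C3). All of these intervals included 0 and spanned at least 2.77 to each side.

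The members ranked the libraries alike. Over the 18 libraries the Spearman correlation of FPKM between 2 members was 0.69 to 0.98 over 28 pairs, with a median of 0.92, and these libraries share the contrast between fibroblasts and tumor cells. The closest pair was C1ra with Serping1 (0.98) and the most distant Cfb with C1s1 (0.69). Among the 7 tumor fibroblast libraries other than WT_CAF 1 the range was 0.37 (C2 with C3, over the 6 libraries with C3) to 0.96, with a median of 0.78. In these 7, C4b went closely with C1s1 and with Serping1, each at 0.96. These values are descriptions over few libraries that share cell type and library format.

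Outside the 9, the genes most like each member over the libraries were found by the same correlation. Serping1 went with Emilin2 (0.99), Srpx (0.98) and Sod3 (0.98), C1s1 with Tgfbr3, Lrrc17 and Srpx (0.98 each), and C1ra with Adamtsl1 (0.98), Cd248 and Mfap2 (0.97 each). C2 went with 3632451O06Rik, Il6st (0.97 each) and Tgfbr3 (0.96), C3 with Chrd, Aldh1a2 and Apoe (0.97 each, over 17 libraries), and C4b with Agtrap (0.97), Serpina3n (0.96) and Fxyd1 (0.95). Among the genes most like Cfb were Ppp1r15a (0.94) and BC017158 (0.91), and Cd55 went with Lamb2 (0.97), Entpd2 (0.95) and Fam46a (0.93).

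The other complement genes were taken from a list of 52, of which 49 were in the table and 26 passed the filter. In WT_tumor against WT_CAF, 7 of the 26 fell, where 12.5% of all genes were called lower. Among the 7 were the near copies C1rb and C1s2, C1rl, the lectin-pathway protease Masp1, the collectin Colec12 and vitronectin (Vtn). C1rb and C1s2 were at most 0.172 and 0.261 FPKM in any NPF or tumor cell library. They passed the filter only through tumor fibroblasts, so their being lower in tumor cells is no separate support. Clu, which encodes clusterin, an inhibitor of the terminal complex, rose by 3.31 ± 0.75 (adjusted p = 0.00813), where 9.08% of all genes were called higher. In KO_tumor against KO_CAF, 9 fell, the same 7 together with C6 and Cr1l, where 15.4% of all genes were called lower. C6, at most 0.0869 FPKM in NPF and tumor cells, also passed the filter only through tumor fibroblasts. There 3 rose, Clu, the ficolin Fcna and C1qbp, where 13% of all genes were called higher. The median of the 26 was −1.04 in the first and −0.27 in the second comparison.

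Clu stood higher in tumor cells than in fibroblasts, opposite to the 7 members. It was at 5582 to 11664 FPKM in WT_tumor and at 6368 and 16221 in KO_tumor 1 and 3, was listed at 0 in KO_tumor 2 and treated as missing there, and stood at 504 to 1434 in WT_CAF 2 to 5, 153 in WT_CAF 1, 272 to 1333 in KO_CAF and 6.48 to 42.2 in NPF. Every tumor fibroblast library lay above every NPF library, WT_CAF 1 included, and Clu was the sole gene of the 26 called in WT_CAF against NPF, at 4.16 ± 0.84 (adjusted p = 0.0351), beside 0.299% of all genes called higher. That call was lost without WT_CAF 2 (3.31, adjusted p = 0.0603), without NPF 1 or NPF 2 (adjusted p = 0.102 and 0.129) with only the compared groups (adjusted p = 0.291) and with zeros left as listed (adjusted p = 0.407). With zeros left as listed the calls of Clu in tumor cells were lost too (1.96, adjusted p = 0.537, with Saa3, and −0.40, adjusted p = 0.911, without it).

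Cfi, which cleaves C3 and C4 fragments, was not called: it was at 2.11 to 54.8 FPKM in WT_tumor, at 5.73 to 99.6 in KO_tumor, at 10.4 to 26.0 in WT_CAF 2 to 5 and at 0.0600 to 0.593 in NPF. C7, of the terminal complex, ranged from 2.89 to 437 FPKM in WT_CAF 2 to 5 and from 0.371 to 397 in KO_CAF, and was at most 0.305 in tumor cells. Colec12 was at 101 to 190 FPKM in WT_CAF 2 to 5 and at 2.61 to 11.3 in WT_tumor, a fall by 4.49 ± 0.52 (adjusted p = 0.000201).

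Of the others, Vtn fell by 4.16 ± 1.16 in WT_tumor and by 3.6 ± 1.18 in KO_tumor, and Masp1 by 2.77 ± 0.55 and 2.67 ± 0.56. C1rl fell by 1.82 ± 0.35 and 1.83 ± 0.35. In KO_tumor C6 (−1.80 ± 0.60, adjusted p = 0.0378), Cr1l (−1.32 ± 0.41), Fcna (2.12 ± 0.54) and C1qbp (1.26 ± 0.35) were called, and C6, Cr1l and C1qbp were not when the fit held only the compared groups (adjusted p = 0.0537 to 0.0635). In that fit C1rb, C1rl, C1s2 and Vtn were not called in WT_tumor against WT_CAF (adjusted p = 0.0589 to 0.116). In KO_tumor, C6 and Vtn were not called without the format term (adjusted p = 0.0526 and 0.0628) or without the filter (0.0525 and 0.0534). Cd59a, which blocks the terminal complex on membranes, was at 6.84 to 32.9 FPKM in WT_CAF 2 to 5 and at 0.562 to 4.36 in WT_tumor and missed the threshold at −2.56 ± 0.89 (adjusted p = 0.0548). In WT_tumor against WT_CAF the calls of C1rb, Vtn and Clu were lost without WT_CAF 3 (adjusted p = 0.0744 to 0.162), those of C1rb and Vtn without WT_CAF 4, and that of C1rb without WT_tumor 1. In KO_tumor against KO_CAF the call of C6 was lost without any one of KO_CAF 2, KO_CAF 3 and the KO_tumor libraries. Those of Cr1l and Vtn were lost without KO_CAF 2, KO_CAF 3, KO_tumor 1 or KO_tumor 2, that of C1qbp without KO_CAF 2, KO_CAF 3 or KO_tumor 1, and that of Fcna without KO_CAF 3 or KO_tumor 2. None of the 26 was called for the loss of Saa3 in fibroblasts or tumor cells by limma.

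**Figure D4:**
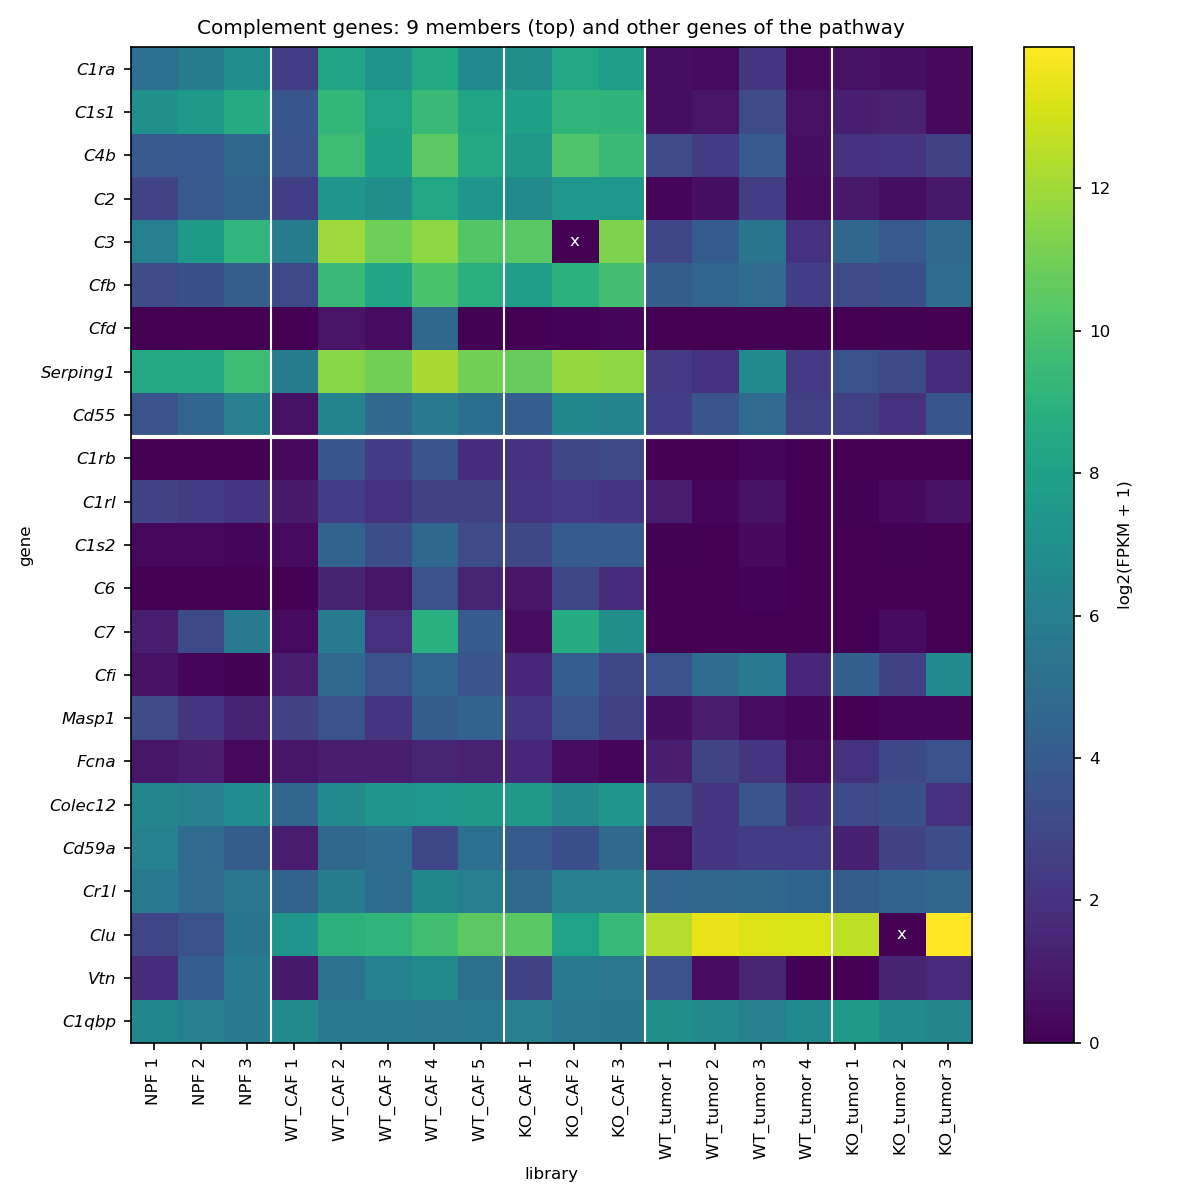
Log2(FPKM + 1) of the 9 complement genes (above the white line) and of 14 other genes of the pathway in the 18 libraries, in groups separated by white lines. Crosses mark values listed at 0 and treated as missing, C3 in KO_CAF 2 and Clu in KO_tumor 2. C2, C3, C4b, Cfb and Serping1 are brightest in WT_CAF 2 to 5 and the measured KO_CAF libraries. C1ra, C1s1 and Cd55 overlap NPF there, Cfd is near 0 almost everywhere, and Clu is brightest in tumor cells.

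C1ra and C1s1 have near copies beside them on chromosome 6, C1rb and C1s2, and how reads were divided between such copies is not stated in the sources used here. In the reference transcripts, 59.2% of the windows of 50 bases of C1rb were also found in C1ra, and 26.9% of those of C1s2 in C1s1. C4a shared 35.2% of its windows with C4b, and Cd55b 25.9% with Cd55. Levels of these pairs are therefore uncertain where one is far below the other.

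The near copies were nevertheless unequal between groups. C1rb was listed at 0 to 0.0332 FPKM in NPF, where C1ra was at 34.0 to 117, and so made up at most 0.0974% of it. In WT_CAF 2 to 5 C1rb was at 2.50 to 12.5 FPKM, or 2.59% to 4.37% of C1ra, in WT_CAF 1 the share was 4.70%, and in KO_CAF it was 2.06% to 3.50%. C1s2 stood at 0.0518% to 0.186% of C1s1 in NPF, at 2.77% to 3.52% in WT_CAF 2 to 5, at 2.80% in WT_CAF 1 and at 2.66% to 2.85% in KO_CAF. Both shares were higher in all 8 tumor fibroblast libraries than in all 3 NPF libraries, also among the libraries without an index. In the tests, C1rb (2.0 ± 0.73, adjusted p = 0.196) and C1s2 (2.15 ± 0.79, adjusted p = 0.201) were not called in WT_CAF against NPF, and the shares were noticed after the values were seen and have no test.

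**Figure D5:**
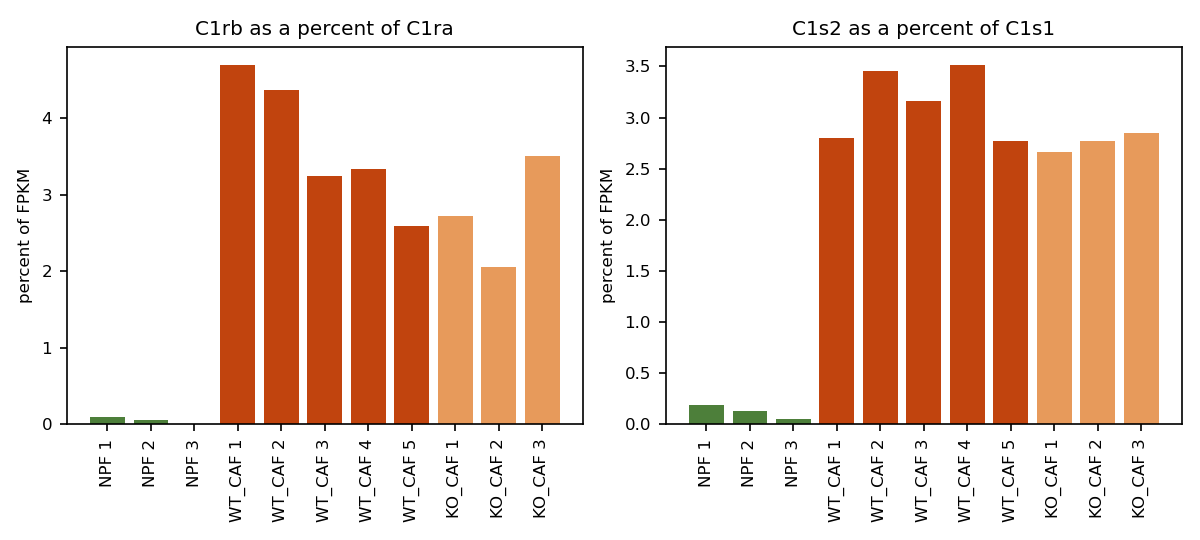
FPKM of C1rb as a percent of C1ra (left) and of C1s2 as a percent of C1s1 (right) in each of the 11 fibroblast libraries, with bars from 0 colored by group. The 3 NPF bars stand at or under 0.0974% and 0.186%, and the 8 tumor fibroblast bars, WT_CAF 1 among them, stand between 2.06% and 4.70% and between 2.66% and 3.52%.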

How the data were processed

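Per the labels' protocols, RNA of sorted cells went through an Illumina TruSeq kit and an Illumina HiSeq2000. What the authors deposited is a single FPKM table of 23951 genes in 18 libraries. Tools named in the submitters' processing notes are Cufflinks 2.2.1, Cuffnorm, TopHat2 2.0.10, SAMtools 0.1.19 and Bowtie 1.0.0, with the builds mm9, GRCh37 and hg19 (per the submitters' processing notes). Settings, annotation and strand are not stated in the sources used here, and without counts the depth in fragments is unknown. FPKM summed to 396646 to 919859 per library, and 10657 to 11670 genes reached 1 FPKM.

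Groups follow the labels. The series design calls the samples biological replicates, replicate numbers follow deposition order, and 1 further allele of the genotype and some genes that the rule below would name are not reported here. FPKM of 1 or more in at least 3 libraries kept 13369 genes (10582 removed). One limma 3.58.1 fit (R 4.3.3, trend) on log2(FPKM + 1) over all libraries held group and library format (no index, 6-base or 16-base index in the label), with 11 residual degrees of freedom, two-sided tests and Benjamini-Hochberg adjustment over all genes. Differences understate changes of low genes. A value listed at 0 was treated as missing where 2 or more others in the group exceeded 0 and each of those reached 50 FPKM. This took in 80 values of 35 genes, 23 of them short RNAs, and left 13368 genes with an estimate. The procedure was tested on simulated data with independent noise for each gene. That simulation held no library set apart as WT_CAF 1 was, so it does not cover such a case.

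The members and the lists of complement and marker genes were chosen with earlier results of these data known. Named beside the members are genes of the complement list that were called or had a mean of at least 5 FPKM in a group, and the 3 genes (mean of at least 5 FPKM) with the highest Spearman correlation to each member. C1qa, C1qb, C4a, Cd55b and Hc are named outside this rule. Alternatives were no format term, only the compared groups, a pseudocount of 0.1, no filter, FPKM rescaled to a sum of 1000000 per library, zeros left as listed, no format term without WT_CAF 1, and each library left out. Leaving out WT_CAF libraries from KO_CAF against NPF, and treating only C3 in KO_CAF 2 as missing, were added after seeing the data.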

Additional observations from a re-analysis of the deposited data

Results flagged for a closer look

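In WT_tumor, 4 members had a library far above the others of the group by Dixon's criterion, each time WT_tumor 3: C2 at 4.86 FPKM, C1ra at 3.66, C1s1 at 8.67 and Serping1 at 104. The same library held the highest fibroblast marker sum of the tumor cells, 316 FPKM against 56.3 to 83.0 in the other WT_tumor libraries, and the part of that in these values was not tested. In WT_CAF, Cfd stood at 24.9 FPKM in WT_CAF 4 alone. In all, 5 of the 18 groups of values examined met the criterion, 4 of them through WT_tumor 3. The criterion is met in about 1 of 20 independent groups of normally distributed values. Values of the same libraries in correlated genes are not independent, so this count cannot be set against that rate.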

How the results depend on the processing

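The 7 members called lower in tumor cells of either genotype kept their direction under every alternative, and the exceptions in their calls are given with the results. No member was called for the loss of Saa3 under any alternative.

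In WT_CAF against NPF, leaving out 1 library at a time gave 0 to 3 called members and 46 to 1337 called genes (131 with all libraries). The differences then ran from −1.12 to 3.59 for C2, −1.73 to 4.29 for C3, −0.47 to 5.41 for C4b, −0.50 to 5.78 for Cfb, −3.39 to 2.19 for C1ra, −3.95 to 1.54 for C1s1, −2.97 to 2.63 for Serping1 and −4.12 to 1.56 for Cd55, the lowest in each case without WT_CAF 2 and the highest without WT_CAF 1. Without the format term 314 genes were called, and C1ra (0.63), C1s1 (0.0482) and Serping1 (1.46) were above 0. Without that term and WT_CAF 1, 924 genes and 4 members were called, and C1ra (1.64), C1s1 (1.05), Serping1 (2.57) and Cd55 (0.76) were above 0. With only the compared groups 2 genes were called, and without the filter 256. Rescaling FPKM to a sum of 1000000 moved the median of all genes from −0.01 to 0.19 and that of the members from 0.53 to 0.81, with Serping1 at 0.13.

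In KO_CAF against NPF, 7 to 395 genes were called with 1 library left out (19 with all). The differences ran from −1.5 to 3.22 for C2, −1.85 to 4.18 for C3, −0.13 to 5.75 for C4b, −0.51 to 5.77 for Cfb, −3.13 to 2.45 for C1ra, −3.75 to 1.73 for C1s1, −3.02 to 2.58 for Serping1 and −3.78 to 1.90 for Cd55. Without the format term 246 genes and 1 member were called, and without it and WT_CAF 1 660 genes and 3 members (Cfb, C4b and C2). In both, C1ra (1.70), C1s1 (1.03), Serping1 (2.51) and Cd55 (0.90) were above 0. The count was 7 with a pseudocount of 0.1, 37 without the filter and 12 after rescaling, where Serping1 was at 0.14 and the median of all genes moved from −0.03 to 0.24. With zeros left as listed C3 was at −2.05.

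For the loss of Saa3 in fibroblasts, 1 to 3 genes were called with 1 library left out (2 with all), 0 with only the compared groups, 1 with zeros left as listed or with only C3 in KO_CAF 2 missing, and 5 without the format term and WT_CAF 1. Leaving out libraries, differences ran from −0.89 to 0.57 for C3, −0.26 to 0.93 for C4b, −0.52 to 0.41 for Cfb, −0.13 to 0.75 for C1ra, −0.10 to 0.57 for C1s1, −0.39 to 0.30 for Serping1 and −0.29 to 1.07 for Cd55. Signs turned for C2 (0.66), C3 (0.74), Cfb (0.93) and Serping1 (1.04) without the format term, for C3 (0.0018), Cfb (0.26) and Serping1 (0.12) with only the compared groups, for Cfb (0.0599) and Serping1 (0.0169) after rescaling, and for C4b (−0.0508) and C1s1 (−0.0153) without the format term and WT_CAF 1. In tumor cells 1 to 5 genes were called with 1 library left out (1 with all), 5 without the filter, and 0 with only the compared groups, with zeros left as listed or with only C3 in KO_CAF 2 missing. There the differences ran from −0.48 to 0.38 for C2, −0.91 to 0.19 for C4b, −0.88 to 0.30 for Cfb, −0.53 to 0.11 for C1ra, −0.80 to 0.29 for C1s1 and −1.04 to 0.58 for Serping1, and C2 was at 0.10 with a pseudocount of 0.1. For the difference between the knockout effects, 0 to 1 genes were called with 1 library left out and 1 without the format term, with or without WT_CAF 1. The differences ran from −0.21 to 0.76 for C2, −0.95 to 0.37 for Cfb, −1.14 to 0.0127 for C1s1 and −1.15 to 0.49 for Serping1, with C2 at −0.81 without the format term and Cfb at 0.13 without it and WT_CAF 1.

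In WT_tumor against WT_CAF, 1217 to 3560 genes were called with 1 library left out (2890 with all) and 769 with only the compared groups. In KO_tumor against KO_CAF, 2221 to 3493 genes (3805 with all) and 6 to 8 members were called with 1 library left out. Where an arm was left with 1 library, that library was assumed to vary like the other groups. The cause of these changes was not tested.

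No paired analysis was possible because the labels give no replicate numbers and do not tie a fibroblast library to a tumor cell library of one animal. The depth of the libraries is unknown, groups hold 3 to 5 libraries, and no NPF library shares a format with KO_CAF or tumor cells.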

Other observations

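Cfb and C2 are neighbours on chromosome 17, and their levels per length were not in a fixed ratio. Cfb over C2 was 0.689 to 1.37 in NPF, 1.53 in WT_CAF 1, 2.50 to 4.28 in WT_CAF 2 to 5 and 2.26 to 5.03 in KO_CAF, so that every tumor fibroblast library lay above every NPF library. In tumor cells, where C2 was mostly under 1 FPKM, the ratio was 5.86 to 82.9 (WT_tumor) and 9.35 to 34.1 (KO_tumor). C1s1 over C1ra was more even among fibroblasts, at 3.00 to 3.79 in NPF, 1.91 to 3.04 in WT_CAF 2 to 5 and 1.77 to 2.41 in KO_CAF. These ratios were noticed after the values were seen and were not tested.

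The recognition subunits of the C1 complex were scarce beside its proteases in fibroblasts. C1qa was at 3.18 to 8.67 FPKM in WT_CAF 2 to 5, at 0.690 to 7.42 in KO_CAF and at 0 to 1.05 in NPF, and C1qb at 3.18 to 7.20, 0.964 to 5.16 and 0.0420 to 0.612. The macrophage marker Csf1r stood at 4.46 to 6.25 FPKM in WT_CAF 2 to 5, at 3.13 to 8.85 in KO_CAF and at 0.697 to 0.978 in NPF. Of the other macrophage markers, Cd68, Cd14 and Itgam also lay above NPF in both, while Lyz2, Ptprc and Emr1 overlapped it. The sum of all 7 overlapped too, at 55.4 to 178 FPKM in WT_CAF 2 to 5, 30.5 to 254 in KO_CAF and 17.7 to 102 in NPF. The part of these markers in the levels of C1qa and C1qb was not tested. In tumor cells C1qa was at 0.589 to 5.04 FPKM and C1qb at 0.309 to 3.33, and in KO_tumor their means (2.31 and 2.23) stood above those of C1ra (0.456) and C1s1 (1.01). Hc, which encodes C5, was at most 0.343 FPKM in any library.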
